A study of Mus musculus with 4 samples.

Results

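The glycosyltransferase genes described here are those whose array symbol begins with St3gal, St6gal, St8sia, Galnt, Gcnt, B3g or B4gal, or with Fut followed by a number. There were 63 such genes among 12393 named genes, and 37 of them were measured, as were 8036 genes in all. A gene was measured where its mean scaled signal over the arrays was at least 100. Signals were fluorescence intensities in arbitrary units, brought to a common trimmed mean of 500 on each array, and of several probe sets of a gene the brightest on average represents it. A further 20 mouse genes with such names were not analysed here.

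The arrays hold RNA of intestinal mucosa from male mice of the inbred strains A/J and C57BL/6J, 10 weeks of age, that had eaten a diet either low or high in fat for 2 weeks. The series addresses how lipid handling in the intestine differs between the strains as diet-induced obesity develops. The 4 groups are A/J on each diet and C57BL/6J on each diet. Where 4 signals of a gene follow each other, they are in a fixed order: first A/J on low-fat, then A/J on high-fat, then C57BL/6J on low-fat, last C57BL/6J on high-fat. Each group had 6 mice, and total RNA from 2 of them, of average body weight, was pooled for 1 array. No group therefore has a replicate, and a ratio between a pair of arrays carries no error and no test. The segment of the intestine is not given in the labels.

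Mucosal glycans are sugar chains on secreted mucins, membrane proteins and lipids of the gut surface. A Galnt enzyme attaches the first N-acetylgalactosamine to a serine or threonine of the protein, galactose and N-acetylglucosamine are then added to lengthen and branch the chain, and sialic acid or fucose usually ends it. Each step draws on a sugar nucleotide carried into the Golgi. The chains give mucus its charge and hydration and serve as attachment sites and food for gut bacteria.

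Among the 37 measured glycosyltransferases, St3gal4 stood farthest apart between the strains. It encodes a sialyltransferase that caps galactose with sialic acid in the alpha-2,3 linkage, and its signal was 118-fold lower in A/J than in C57BL/6J on low-fat and 105-fold lower on high-fat. St6galnac2, which sialylates the N-acetylgalactosamine of mucin-type chains, was 2.37-fold and 2.88-fold lower in A/J. Galnt11, one of the enzymes that start O-glycans, was 3.67-fold and 2.70-fold higher in A/J, and St3gal6, a second alpha-2,3-sialyltransferase, was 2.48-fold and 1.68-fold higher. Diet made smaller differences: Gcnt3, the branching enzyme of gut mucins, was 2.08-fold lower on high-fat in C57BL/6J, and no measured glycosyltransferase reached 2-fold with diet in A/J.

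To show where transcription of the genes that differ by strain begins, the 250 bases before each start site are given for St3gal4, St3gal6 and Galnt11, the 3 of the 4 genes at least 2-fold apart between strains on low-fat that the promoter table holds. The sequences are from RefSeq, build GRCm38.p6, which is C57BL/6J sequence, and are written 5′ to 3′ on the strand of the gene. Capitals mark matches on either strand to these motifs: GC box (GGGCGG), the so-called TATA box spelled as TATAAA, HNF4 (CAAAGTNCA), the HNF1 half-site spelled as GTTAAT, the CDX motif spelled as TTTATNG, CRE (TGACGTCA) and its shorter half-site TGACG, which lies inside the CRE.
St3gal4, chr9:35116865-35117114, minus strand: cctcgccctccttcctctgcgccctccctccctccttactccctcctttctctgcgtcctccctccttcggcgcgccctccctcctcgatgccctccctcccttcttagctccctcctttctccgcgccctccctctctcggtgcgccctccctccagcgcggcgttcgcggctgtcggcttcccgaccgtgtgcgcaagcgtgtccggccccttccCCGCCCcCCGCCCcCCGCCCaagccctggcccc
St3gal6 start site 1, chr16:58524254-58524503, minus strand: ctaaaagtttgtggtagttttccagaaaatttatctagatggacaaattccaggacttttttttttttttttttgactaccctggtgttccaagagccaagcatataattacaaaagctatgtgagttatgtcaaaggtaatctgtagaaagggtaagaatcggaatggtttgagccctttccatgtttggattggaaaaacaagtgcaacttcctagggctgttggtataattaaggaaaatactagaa
St3gal6 start site 2, chr16:58523427-58523676, minus strand: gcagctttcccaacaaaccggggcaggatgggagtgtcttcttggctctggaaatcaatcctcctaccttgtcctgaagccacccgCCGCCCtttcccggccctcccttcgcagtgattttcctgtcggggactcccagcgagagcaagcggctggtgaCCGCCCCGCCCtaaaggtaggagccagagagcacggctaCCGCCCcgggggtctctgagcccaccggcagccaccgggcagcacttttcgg
Galnt11 start site 1, chr5:25222622-25222871, plus strand: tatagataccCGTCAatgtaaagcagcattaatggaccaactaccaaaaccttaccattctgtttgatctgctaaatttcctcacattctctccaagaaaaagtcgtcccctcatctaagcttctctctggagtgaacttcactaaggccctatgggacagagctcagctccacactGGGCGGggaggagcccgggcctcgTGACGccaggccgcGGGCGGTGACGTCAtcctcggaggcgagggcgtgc
Galnt11 start site 2, chr5:25246123-25246372, plus strand: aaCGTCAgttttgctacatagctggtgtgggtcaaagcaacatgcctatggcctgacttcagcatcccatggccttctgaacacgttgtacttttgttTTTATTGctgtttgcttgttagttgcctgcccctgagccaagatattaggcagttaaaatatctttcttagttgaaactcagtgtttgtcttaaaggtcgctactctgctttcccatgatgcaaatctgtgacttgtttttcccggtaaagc
The St3gal4 window had 72.8% G and C, against a median of 52.4% and quartiles of 45.2% and 61.2% over 32851 RefSeq mouse windows of the same length, and held 3 GC boxes. Start site 1 of St3gal6 had 34.8% G and C and no match, and start site 2 had 64.4% and 4 GC boxes. Start site 1 of Galnt11 held 2 GC boxes, a CRE and further CRE half-sites outside it, and start site 2 held a CDX match and a CRE half-site. Over all windows, 32.7% held a GC box, 12.4% a TATA box, 1.19% an HNF4 match, 6.43% an HNF1 half-site, 9.81% a CDX match, 1.55% a CRE and 17.8% a CRE half-site. These matches describe letters only, and the arrays do not bear on whether a factor binds there.

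Before ratios were formed, signals under 100 were set to 100, and ratios were taken as log2. Strain was also tested in limma with additive terms for strain and diet over all 8036 genes, and p-values were adjusted by the Benjamini-Hochberg method. That fit takes its error from the strain-by-diet difference, with 1 residual degree of freedom before the spread is shared across genes, so its p-values measure only the spread among these 4 pools. A log2 difference is A/J minus C57BL/6J for strain and high-fat minus low-fat for diet throughout.

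**Figure D1:**
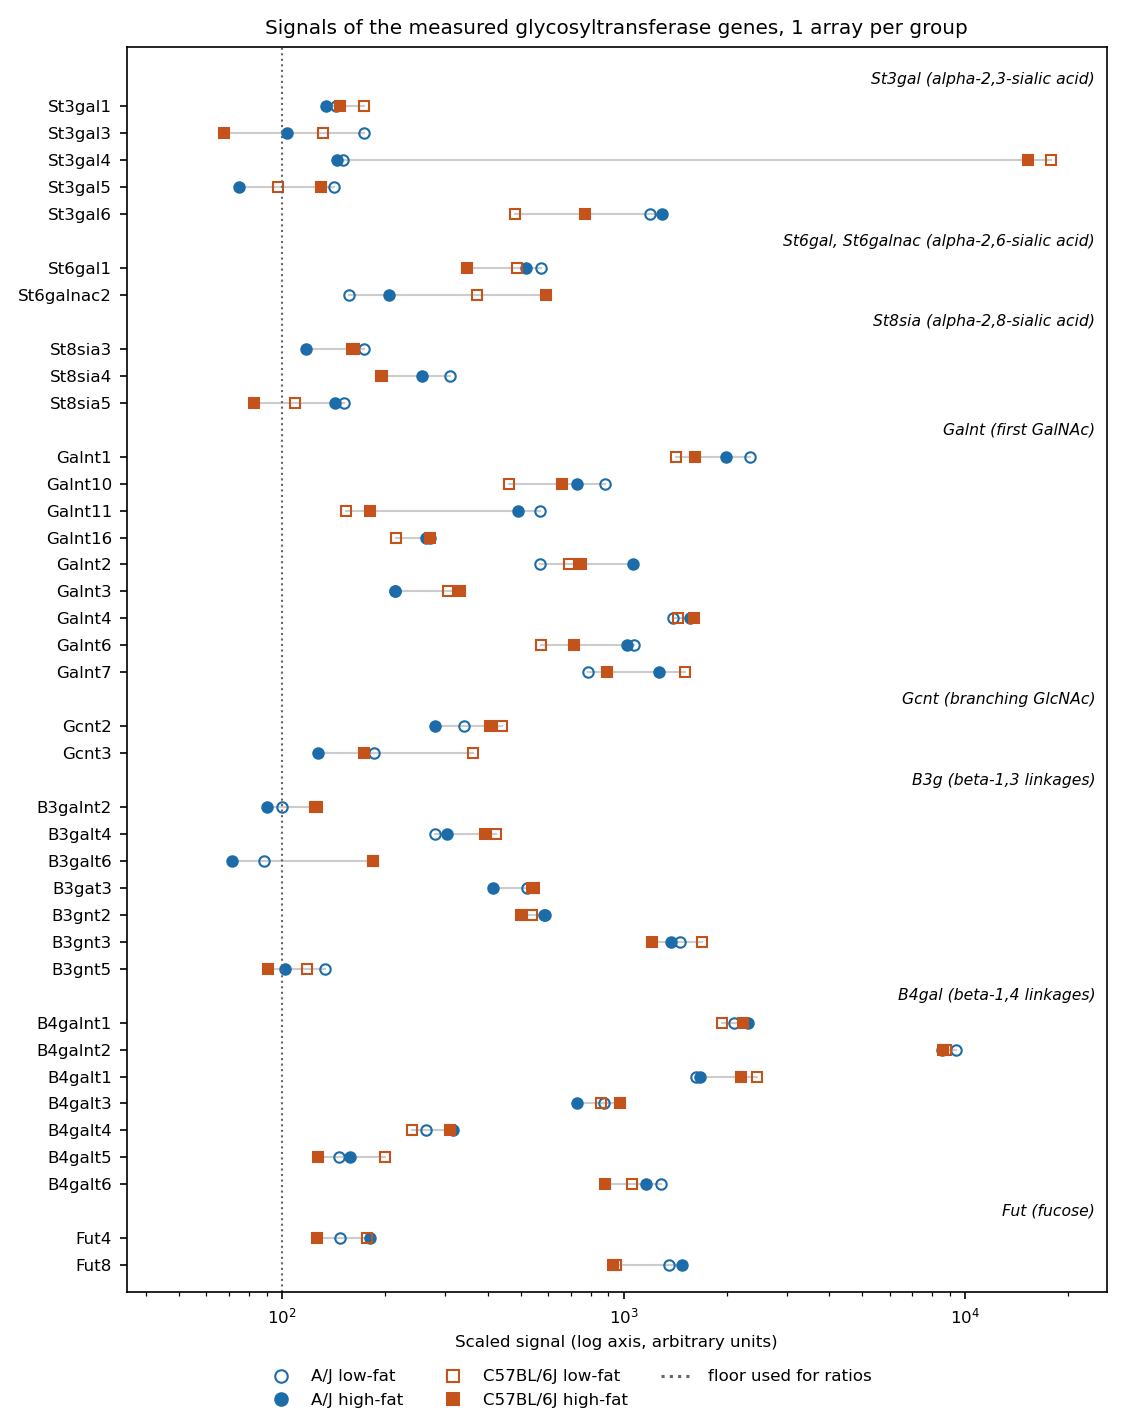
Scaled signal (log axis, arbitrary units) of the 37 measured glycosyltransferase genes on each of the 4 arrays, by family; circles are A/J, squares C57BL/6J, open symbols low-fat and filled symbols high-fat, and the dotted line is the floor of 100. St3gal4 lies at 151 and 145 in A/J and at 17766 and 15286 in C57BL/6J, and no other gene plotted shows a gap of that size.

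On low-fat, A/J exceeded C57BL/6J by 2-fold or more in 2 of the 37 genes, against 3.0% of all measured genes, and was below it by 2-fold or more in 2, against 2.64% of all. On high-fat, 1 gene was that much higher in A/J (1.93% of all genes) and 2 were that much lower (2.38% of all genes). At the smaller step of 1.5-fold, 6 were higher and 7 lower on low-fat, against 10.9% and 9.23% of all genes. On high-fat, 3 were higher and 4 lower at that step, against 8.37% and 6.88%. Strain ratios stayed within 1.5-fold on both diets for 22 of the 37 genes (59.5%), against 72.2% of all genes.

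The limma fit put 5 of the 37 at an adjusted p under 0.05 for strain. Galnt11 and St3gal6 were called higher in A/J, where 3.83% of all genes were called, and St3gal4 and St6galnac2 lower, where 3.68% were. The fifth, B3galt6, is only a bound: it passed the filter on mean signal through the C57BL/6J arrays alone and both its A/J values are the floor, so its p supports no difference. Of the 308 genes called higher over the array 26, and of the 296 called lower 26, likewise had both signals of 1 strain under the floor. Without scaling between arrays the calls over all genes were 596 higher and 141 lower, instead of 308 and 296, and among the glycosyltransferases they were 5 higher and 3 lower. At an unadjusted p under 0.05 the fit held 8 higher (12.2% of all genes) and 8 lower (9.36% of all genes). A floor of 200, or no filter on mean signal, left 0 of the 37 called for strain. No gene of the array was called in those fits. Dropping an array leaves 1 array in a strain, so the calls of such fits are not given. The median log2 strain difference of the 37 was 0.10 on low-fat and 0.04 on high-fat, and that of all measured genes was 0.02 and 0.04. The direction was shared by both diets in 27 of the 37 genes (73.0%), against 64.6% of all genes. Both A/J signals lay above both C57BL/6J signals in 11 of the 37 (29.7%), against 27.3% of all genes, and below them in 10 (27.0%), against 21.9%, so a lack of overlap between the strains is frequent on these arrays.

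**Figure D2:**
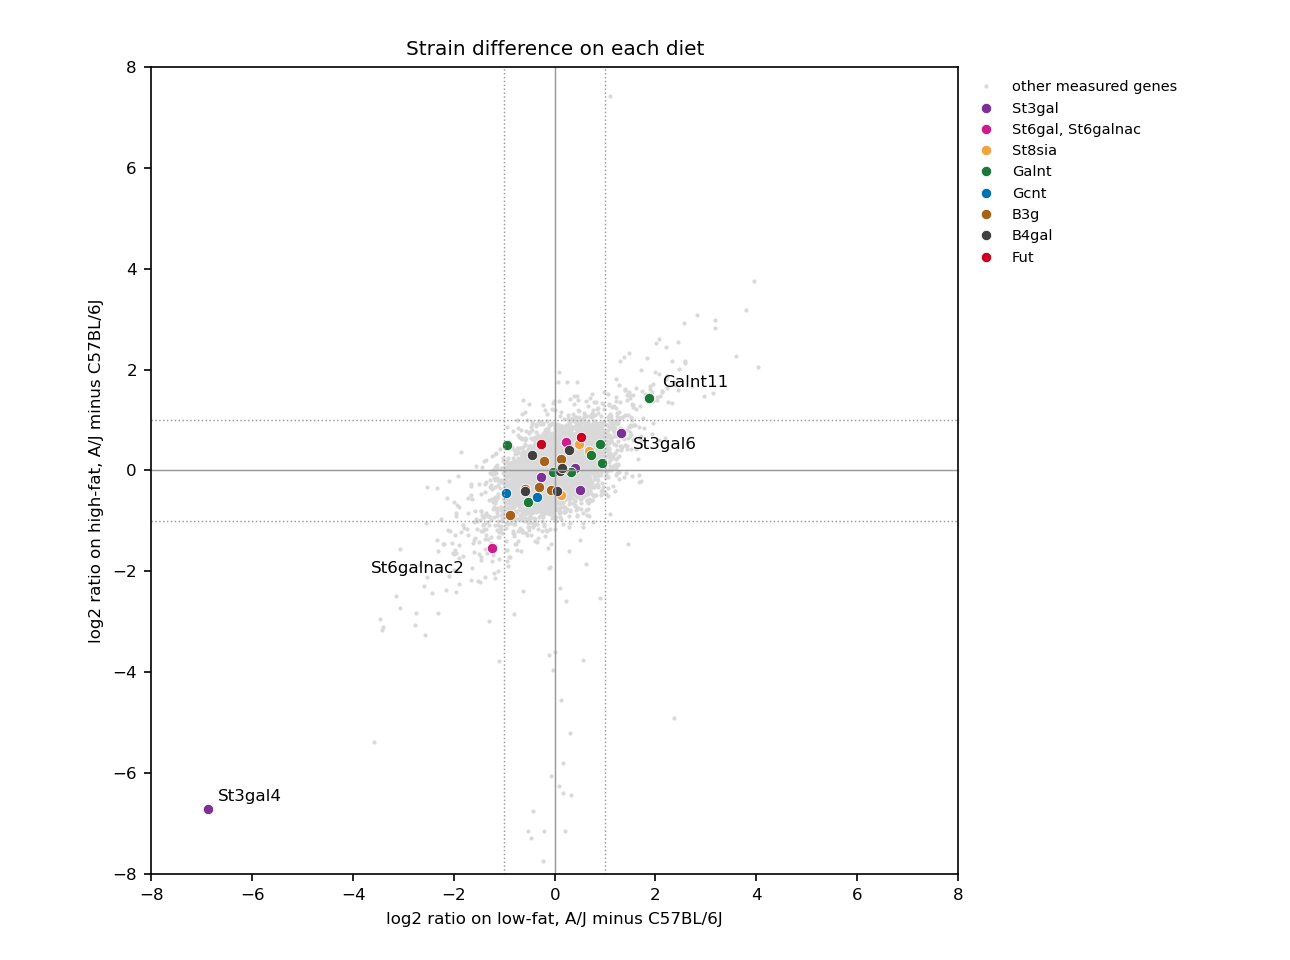
Log2 ratio of A/J to C57BL/6J on low-fat (horizontal axis) and on high-fat (vertical axis), 1 point per measured gene; coloured points are the 37 glycosyltransferases by family, grey points the other genes, and dotted lines mark 2-fold. St3gal4 lies alone at -6.88 and -6.72, Galnt11 lies at 1.88 and 1.44, and most other coloured points are inside the 2-fold lines.

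The St3gal genes encode enzymes that place sialic acid on galactose, and 5 of 6 were measured. The signal of St3gal4 was 151 (low-fat) and 145 (high-fat) in A/J, and 17766 (low-fat) and 15286 (high-fat) in C57BL/6J. Both A/J arrays lay just above the floor of 100 and both C57BL/6J arrays lay far above it, so the strains did not overlap. The log2 strain difference was -6.88 on low-fat and -6.72 on high-fat, and limma gave -6.80 with an SE of 0.196 and an adjusted p of 1.45e-09. By size of the ratio St3gal4 was number 1 of 8036 genes on low-fat and number 8 on high-fat. The gene has 1 probe set on the array, so no second readout of it exists in these data. That probe set is of a kind that can match more than 1 transcript, and whether the strains differ in transcript form was not tested. In RNA from whole mucosa, fewer cells of a type and less RNA per cell cannot be told apart.

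St3gal6, whose enzyme sialylates lactosamine-type ends, went the other way. Its signal was 1193 (low-fat) and 1298 (high-fat) in A/J, and 480 (low-fat) and 772 (high-fat) in C57BL/6J, with both A/J arrays above both C57BL/6J arrays. Limma gave a log2 strain difference of 1.03 with an SE of 0.211 and an adjusted p of 0.0103. This brightest probe set is of a kind that can match more than 1 transcript. Its second probe set read 795, 736, 457 and 534 in the same order of groups, with a log2 strain difference that was 0.80 on low-fat but 0.46 on high-fat, in the same direction and below 2-fold. By that probe set, in the limma fit without shared probe sets, the log2 difference was 0.63 and the adjusted p of 0.132 did not pass.

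The other 3 measured St3gal genes lay near the floor. St3gal1, which sialylates the core of mucin-type chains, read between 134 and 174 over the arrays. St3gal5, which makes the ganglioside GM3, read 142 (low-fat) and 74.6 (high-fat) in A/J, and 97.2 (low-fat) and 130 (high-fat) in C57BL/6J, with 2 of these under the floor. St3gal3 read 174, 103, 132 and 67.5 in that order. None of these 3 was called for strain.

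Of the enzymes that attach sialic acid in the alpha-2,6 linkage, 2 of 7 were measured. St6galnac2 read 157 (low-fat) and 206 (high-fat) in A/J, and 373 (low-fat) and 593 (high-fat) in C57BL/6J. Both A/J arrays lay below both C57BL/6J arrays, and within each strain the high-fat array was the higher. Limma gave a log2 strain difference of -1.39 with an SE of 0.199 and an adjusted p of 0.000921. Its second probe set lay under the floor on every array, between 5.23 and 25.8, and gives no ratio. St6gal1, the enzyme that sialylates N-glycans, read 570.6 and 516 in A/J and 488 and 348 in C57BL/6J, low-fat first, with log2 strain differences of 0.23 and 0.57. Its second measured probe set gave -0.35 on low-fat and 0.04 on high-fat, so the low-fat direction depended on the probe set.

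The St8sia enzymes add sialic acid to sialic acid, and 3 of 5 genes were measured. St8sia4, a polysialyltransferase, read 310 and 257 in A/J and 194 and 196 in C57BL/6J, low-fat first. The strains did not overlap, and the log2 difference of 0.53 had an unadjusted limma p of 0.0197 and an adjusted p of 0.136. St8sia5, which acts on gangliosides, read 152 and 143 in A/J and 109 and 82.9 in C57BL/6J. St8sia3 read between 117 and 174, with no separation of the strains.

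Of the Galnt genes, 9 of 10 were measured. On low-fat, 4 of these were 1.5-fold or more higher in A/J (10.9% of all genes) and 1 as far below (9.23% of all genes), and on high-fat 1 was higher (8.37%) and 1 lower (6.88%). Galnt11 read 567 (low-fat) and 491 (high-fat) in A/J, and 154 (low-fat) and 181 (high-fat) in C57BL/6J. Both A/J arrays lay above both C57BL/6J arrays, and the log2 difference in limma was 1.66 with an SE of 0.205 and an adjusted p of 0.000323. Galnt11 has 1 probe set. By size of ratio it was number 94 of 8036 genes on low-fat and number 164 on high-fat.

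Galnt6 read 1069 and 1021 in A/J against 573 and 714 in C57BL/6J, low-fat first, without overlap, and its limma log2 difference of 0.71 had an adjusted p of 0.0545. Galnt1, among the widely acting starters of O-glycans, read 2344 and 1998 against 1418 and 1622. Its second probe set gave a log2 strain difference of 0.09 on low-fat but -0.14 on high-fat. Galnt10, which prefers peptides that already carry sugar, read 883 and 729 against 462 and 660, a ratio of 1.91 under low-fat and 1.10 under high-fat. By their brightest probe sets these 3 genes were higher on both A/J arrays than on either C57BL/6J array, as 27.3% of all genes were, and none passed the adjusted threshold. The second probe set of Galnt1 read 1599, 1888, 1498 and 2080, with the strains overlapping.

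Galnt3 was lower in A/J, at 214 on both diets against 306 and 331 in C57BL/6J, with an adjusted p of 0.105. Galnt4 read between 1395 and 1604 over the arrays, with the same log2 strain difference of -0.04 under both diets. Its second probe set gave -0.39 on low-fat and 0.57 on high-fat. Galnt16 read between 216 and 271. Galnt7 had log2 strain differences that were -0.95 on low-fat but 0.50 on high-fat, with opposite signs on the diets, and its other probe sets gave -0.33 and 0.23, and -0.74 and -0.54. Galnt2 had -0.28 and 0.51 by its brightest probe set, 0.97 and 0.85 by the second and 0.05 and 0.77 by the third, low-fat first. The signals of both genes are given with the diet comparison. The median log2 strain difference of the 9 genes was 0.33 on low-fat and 0.30 on high-fat.

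The Gcnt enzymes open a branch with N-acetylglucosamine, and 2 of 3 genes were measured. Gcnt3, which makes the core branches of gut mucins, read 186 (low-fat) and 127 (high-fat) in A/J, and 362 (low-fat) and 174 (high-fat) in C57BL/6J. It was lower in A/J within each diet, but the A/J low-fat array lay above the C57BL/6J high-fat array, and the limma log2 strain difference of -0.71 had an adjusted p of 0.0605. Gcnt2, the branching enzyme of the I antigen, read 341 and 281 in A/J and 439 and 406 in C57BL/6J, with an adjusted p of 0.208. Gcnt1 was under the floor on every array.

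Of the genes for beta-1,3-linked sugars, 7 of 16 were measured. B3galt6, which builds the linker of glycosaminoglycans, read 88.6 in A/J low-fat and 71.5 in A/J high-fat, and 184 and 185 in C57BL/6J. Since both A/J signals were under the floor, the A/J level was lower by at least 1.84-fold on low-fat and at least 1.85-fold on high-fat. The limma p of 0.0158, adjusted, rests on 2 identical floored values and is no support for a strain difference. With no filter on mean signal the adjusted limma p was 0.25, but St3gal4 also had 0.25 and no gene of the array was called there. B3galt4, a ganglioside galactosyltransferase, read 281 and 304 in A/J and 423 and 392 in C57BL/6J, with an adjusted p of 0.181. B3gnt3, which lengthens mucin-type cores, read 1461 and 1373 in A/J and 1692 and 1213 in C57BL/6J, so that the A/J arrays lay between the C57BL/6J arrays. B3gnt2, which builds polylactosamine, read between 499.7 and 589, and B3gat3, another linker enzyme, between 414 and 547. B3gnt5 and B3galnt2 stayed between 90.0 and 133.

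Of the genes for beta-1,4-linked sugars, 7 of 9 were measured, and none was called for strain. B4galnt2, which makes the Sd(a) determinant of the gut, read 9421, 8544, 8780 and 8581. Its strain log2 differences were 0.10 and -0.01 by this probe set, and -0.41 and -0.72 by the second. B4galt1, the main lactosamine galactosyltransferase, read 1627 and 1671 in A/J and 2457 and 2206 in C57BL/6J, without overlap, with a log2 difference of -0.50 and an adjusted p of 0.161. B4galnt1, which makes gangliosides, read between 1937 and 2314. B4galt6, which acts on glucosylceramide, read 1283 and 1165 in A/J and 1056 and 881 in C57BL/6J. B4galt3 read between 730.5 and 973, B4galt4 between 239.9 and 317, and B4galt5 between 127 and 199.9.

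Among the fucosyltransferases, 2 of 7 were measured. Fut8, which fucosylates the core of N-glycans, read 1354 (low-fat) and 1478 (high-fat) in A/J, and 947 (low-fat) and 931 (high-fat) in C57BL/6J. The strains did not overlap, at a log2 difference of 0.59 with an adjusted p of 0.0935. Fut4, which makes Lewis x structures, read 148, 181, 177 and 126 in that order, with the strains mixed. Fut2, the enzyme behind the H antigen of secretions, read 6.25, 25.5, 39.4 and 2.39, and Fut1 was also under the floor on every array. In all, 26 of the 63 genes were not measured. Of these, 21 lay under the floor on all 4 arrays and 5 (B3galt5, Fut7, St3gal2, St6galnac6 and St8sia2) reached it on at least 1 array.

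High-fat was compared with low-fat within each strain. In A/J, none of the 37 genes was at least 2-fold higher (0.796% of all genes) or lower (1.05% of all genes) on high-fat. In C57BL/6J, none was at least 2-fold higher (1.02% of all genes) and 1 was at least 2-fold lower (0.672% of all genes), Gcnt3. At 1.5-fold, 2 were higher and 1 lower in A/J, against 4.99% and 4.7% of all genes. In C57BL/6J 2 were higher and 3 lower at that step, against 5.13% and 4.63%. Diet ratios stayed within 1.5-fold in both strains for 30 of the 37 (81.1%), against 83.1% of all genes.

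The limma fit called 0 of the 37 genes for diet, where 0.423% of all genes were called higher on high-fat and 0.187% lower. At an unadjusted p under 0.05, Galnt2 and St6galnac2 were higher (4.87% of all genes) and Gcnt3 and St3gal3 lower (4.48% of all genes). Gcnt3 went from 186 to 127 in A/J, which is 1.46-fold lower on high-fat, and from 362 to 174 in C57BL/6J, which is 2.08-fold lower. The limma log2 diet difference of Gcnt3 was -0.80 with an SE of 0.208, and its adjusted p of 0.164 did not pass. St6galnac2 was 1.31-fold higher on high-fat in A/J and 1.59-fold higher in C57BL/6J, with an adjusted p of 0.405. St3gal3 was 1.68-fold lower in A/J and at least 1.32-fold lower in C57BL/6J, with an adjusted p of 0.355.

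**Figure D3:**
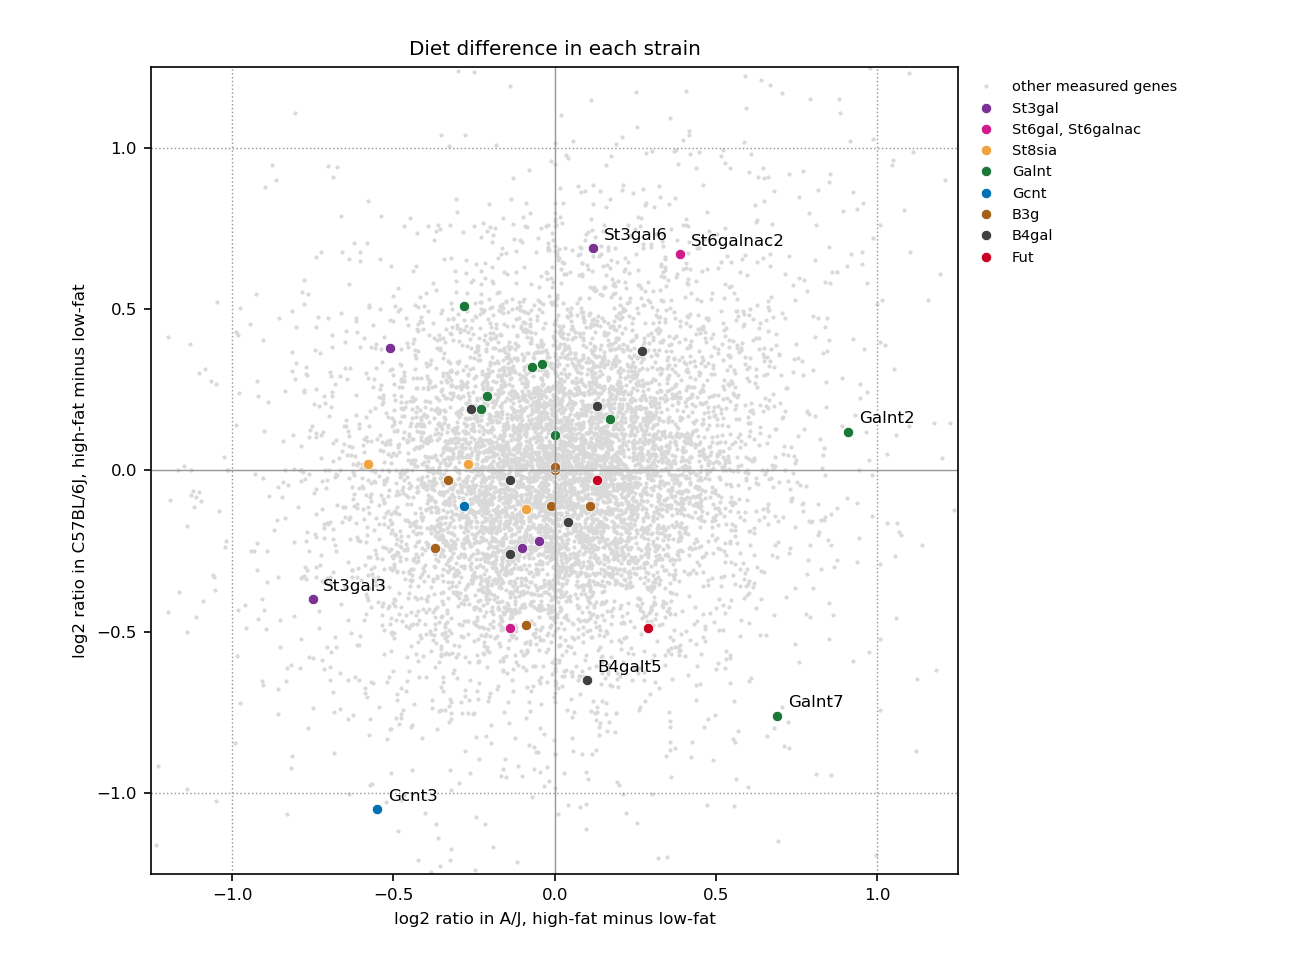
Log2 ratio of high-fat to low-fat in A/J (horizontal axis) and in C57BL/6J (vertical axis), 1 point per measured gene; coloured points are the 37 glycosyltransferases by family, grey points the other genes, dotted lines mark 2-fold, and 112 other genes lie outside the axes. Gcnt3 is at -0.55 and -1.05, and Galnt7 is at 0.69 and -0.76, in opposite directions.

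Galnt7, which extends peptides that already carry N-acetylgalactosamine, had opposite diet ratios in the strains. It read 785 (low-fat) and 1265 (high-fat) in A/J, and 1512 (low-fat) and 892 (high-fat) in C57BL/6J, so it was 1.61-fold higher on high-fat in A/J and 1.70-fold lower in C57BL/6J. Over all genes, 0.485% had opposite diet ratios of at least 1.5-fold in the strains, either way round, with all 4 signals above the floor. The other 2 measured probe sets of Galnt7 gave the same signs with smaller sizes. They read 776, 855, 978 and 729, and 594, 615, 989 and 895, with log2 diet differences of 0.14 and 0.05 in A/J and -0.42 and -0.14 in C57BL/6J. The difference between strains in the response to diet has no test with 1 array per group.

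Galnt2, another widely acting starter of O-glycans, read 568 (low-fat) and 1065 (high-fat) in A/J, and 690.1 (low-fat) and 748 (high-fat) in C57BL/6J. It was 1.87-fold higher on high-fat in A/J, and its adjusted p for diet was 0.499. Its other probe sets gave log2 diet differences of 0.05 and 0.56 in A/J, so that the size depended on the probe set. St3gal6 was 1.61-fold higher on high-fat in C57BL/6J, by a second probe set 0.22 on the log2 scale, and B4galt5, a lactosylceramide synthase, was 1.57-fold lower there.

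**Figure D4:**
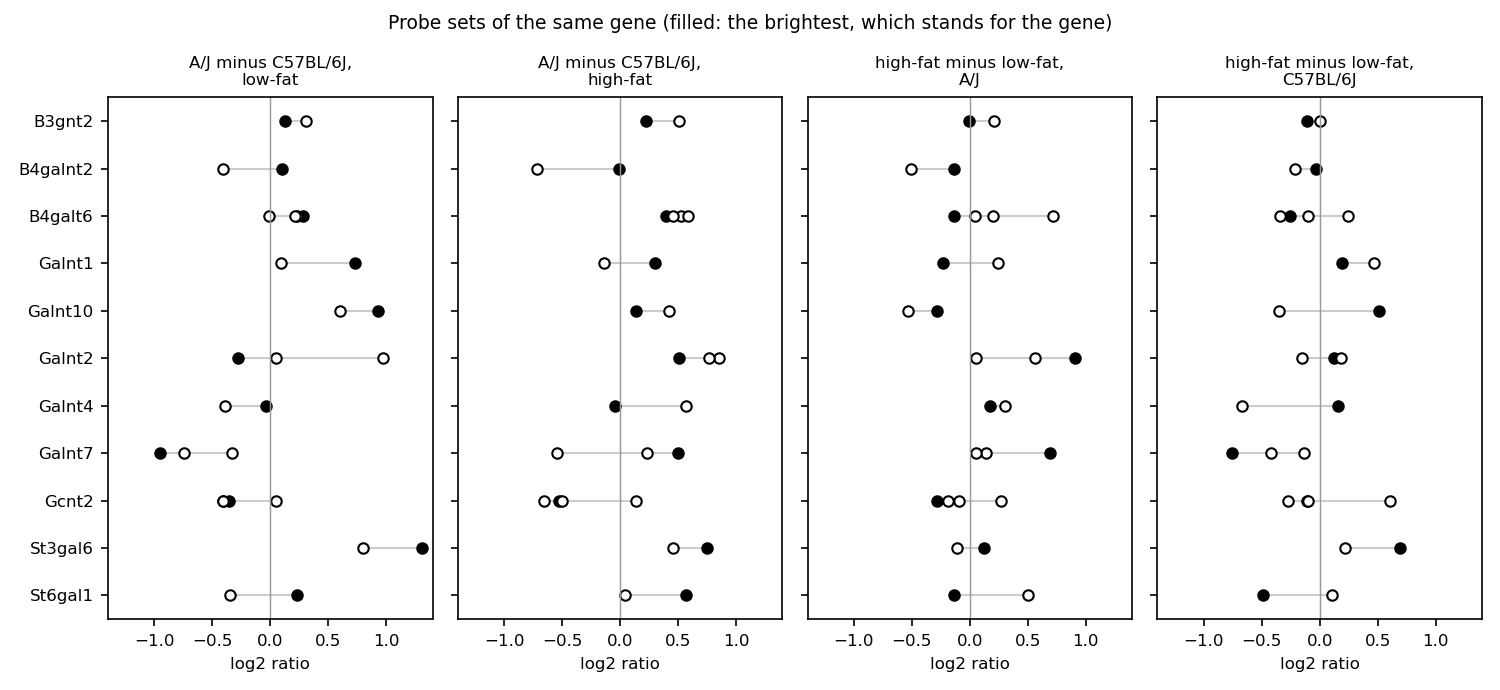
Log2 ratios of every measured probe set of the 11 glycosyltransferase genes that have more than 1, in the 4 comparisons; the filled point is the brightest probe set, which stands for the gene, and open points are the others. For St3gal6 both points lie above 0 in the strain panels, and for Galnt7 all 3 lie above 0 for diet in A/J and below 0 in C57BL/6J.

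Probe sets of the same gene were compared wherever more than 1 was measured, which held for 11 genes and gave 44 comparisons. All probe sets of the gene had the same sign in 22 of the 44, and in 0 did they differ in sign at 1.5-fold or more on both sides. Another 30 of the 63 genes have a single probe set, among them St3gal4, Galnt11 and Gcnt3.

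**Figure D5:**
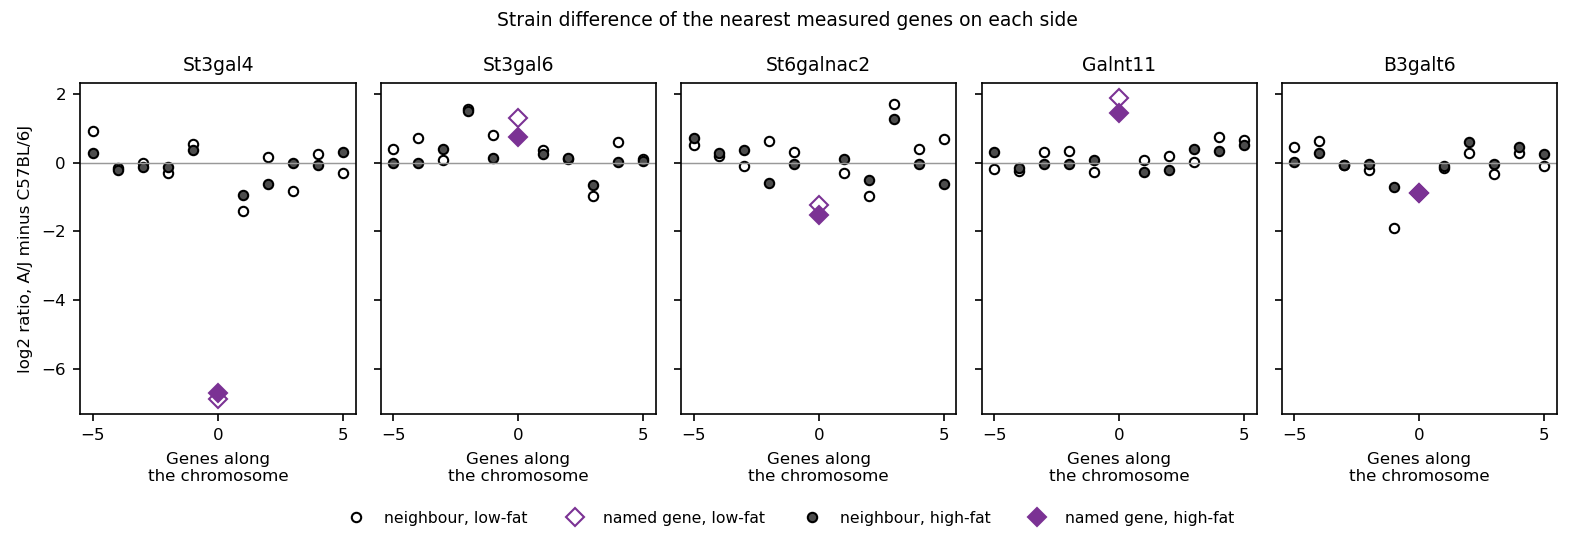
Log2 ratio of A/J to C57BL/6J for the 5 nearest measured genes on each side (circles) of each glycosyltransferase gene with an adjusted limma p under 0.05 for strain (diamonds; B3galt6 is a bound), in order along the chromosome; open symbols are low-fat and filled symbols high-fat. Beside St3gal4, Dcps is at -1.42 and -0.93, and the other neighbours lie closer to 0 on low-fat.

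These 5 genes, B3galt6 included although it gives only a bound, lie on different chromosomes, and the 10 nearest measured genes were read around each. Dcps, the mRNA decapping scavenger next to St3gal4 on chromosome 9, was lower in A/J on both diets, with log2 differences of -1.42 (a bound, since A/J low-fat was under the floor) and -0.93 and an adjusted limma p of 0.00411. Near St3gal6 on chromosome 16, Tbc1d23 was higher in A/J at 1.55 and 1.49, with an adjusted p of 0.00042, and Riox2 was lower at -0.97 and -0.65, with an adjusted p of 0.0284. Near St6galnac2 on chromosome 11, Srsf2 was higher at 1.70 and 1.27, with an adjusted p of 0.000677, and Mettl23 was lower at -0.97 and -0.52, with an adjusted p of 0.0469. Near B3galt6 on chromosome 4, C1qtnf12 was lower at -1.90 and -0.72, with an adjusted p of 0.00824. Around Galnt11 on chromosome 5, none of the 10 neighbours reached 2-fold on either diet.

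Genes of the pathway outside the glycosyltransferase names were read from 7 lists holding 112 genes, of which 88 were found and 68 measured. Limma put 2 of the 68 higher in A/J, where 3.83% of all genes were called, and 5 lower, where 3.68% were. For diet it put 0 past the threshold, where 0.423% of all genes were called higher and 0.187% lower. Of the 7 genes, Cmah and Muc4 passed the filter through 1 strain only and have floored values in the other, so they give bounds and no test. In sugar nucleotide synthesis, 20 genes were measured. Cmah, which converts the common sialic acid to its hydroxylated form, read 171 and 165 in A/J against 95.0 and 86.6 in C57BL/6J, low-fat first, and both C57BL/6J signals are under the floor. Gfpt1, the entry enzyme of hexosamine synthesis, read 386 and 290 in A/J against 666 and 607, with an adjusted p of 0.0136. Uap1l1 read 662 and 477 against 1275 and 1432, with an adjusted p of 0.00321. Cmah was thus higher, and Gfpt1 and Uap1l1 were lower, on both A/J arrays.

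None of the 10 measured sugar nucleotide transporters and neither of the 2 measured sulfotransferases was called. Of 17 measured glycosyltransferases with other names, Mgat3, which adds the bisecting residue of N-glycans, was called higher in A/J, at 466 and 430 against 309 and 204, with an adjusted p of 0.0295. Of 6 glycosidases, the lysosomal fucosidase gene Fuca1 was called lower, at 2937 and 2169 against 6089 and 4374, with an adjusted p of 0.00622. Of 6 mucins and carriers, Muc4, a membrane mucin, read 75.6 and 54.1 against 191 and 170, with both A/J signals under the floor, and the others were not called. Of 7 galectins, which bind galactose-bearing chains, Lgals3 was called lower, at 6225 and 5841 against 10888 and 9514, with an adjusted p of 0.0353.

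Markers of the cells that the mucosa can hold were read on the same arrays. The summed signal of 9 enterocyte markers was between 145847 and 157200, and that of 8 goblet cell markers between 72938 and 83705, so the labelled tissue carried its defining genes on every array. T cell and intraepithelial lymphocyte markers had a summed signal, over 10 genes found, of 3421 (low-fat) and 4553 (high-fat) in A/J, and 13226 (low-fat) and 7354 (high-fat) in C57BL/6J. On low-fat, 6 of 9 measured were at least 1.5-fold lower in A/J, where 9.23% of all genes were, and none was that much higher. On high-fat the median log2 difference of the 9 was 0.11, with Itgae at least 1.5-fold higher in A/J (8.37% of all genes) and Gzma lower (6.88% of all genes), and Gzma alone read 907 against 3352. With diet in C57BL/6J, 7 of 9 were at least 1.5-fold lower on high-fat, where 4.63% of all genes were. The summed signal of 5 Paneth cell markers was 25109 and 24497 in A/J and 44759 and 35519 in C57BL/6J, low-fat first, but Reg3g accounts for most of the gap: without it the sums were 16796, 15539, 19596 and 17205. Most of those sums is Lyz1. On low-fat, 3 of the 5 (Reg3g, Mmp7 and Pla2g2a) were at least 1.5-fold lower in A/J (9.23% of all genes) and none was that much higher. On high-fat, Reg3g alone was that much lower (6.88% of all genes). The sum of 9 exocrine pancreas markers was 81832 (low-fat) and 2259 (high-fat) in A/J, and 82336 (low-fat) and 129650 (high-fat) in C57BL/6J. With diet in A/J, all 9 were at least 2-fold lower on high-fat, where 1.05% of all genes were. Between strains on high-fat, all 9 were at least 2-fold lower in A/J, where 2.38% of all genes were. The sum of 5 stomach surface markers was 3128, 1180, 1895 and 9471 in that order.

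The sum for 5 B and plasma cell markers was between 10440 and 11688, nearly all of it Jchain; without Jchain it was 1364 and 1315 in A/J and 971 and 690 in C57BL/6J, low-fat first, and on high-fat A/J exceeded C57BL/6J by 1.5-fold or more in 4 of the 5, where 8.37% of all genes were. Sums for macrophages ran from 6077 to 7140, for enteroendocrine cells from 10233 to 12414, for smooth muscle from 1837 to 3086, and for 6 genes that separate small intestine from colon from 1738 to 2667. The last sum mixes markers of both regions and does not tell the segment. Of those genes only Gata4, between 1009 and 1299, and Car4 were measured. Car4 read 837 and 1539 in A/J against 375 and 833 in C57BL/6J, low-fat first. Its adjusted limma p was 0.00742 for strain and 0.0421 for diet. The control probe set for the start of 18S ribosomal RNA read 216.6, 84.0, 10927.2 and 1663.5. That for its end read 212.8, 180.8, 4974.6 and 395.6, and that for its middle 96.3, 23.2, 596.4 and 185.3. In each the C57BL/6J low-fat array was far the highest, and both C57BL/6J arrays lay above both A/J arrays. The part of these cell types and of the ribosomal signal in the glycosyltransferase ratios was not tested. Median deposited signals were 57.1, 53.8, 48.5 and 43.8 in that order, and between 58.6% and 60.3% of probe sets reached the floor after scaling.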

How the data were processed

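The deposited values are linear fluorescence intensities, 1 per probe set and array; per the labels, the authors calculated them with Microarray Suite 5.0 at default settings from perfect-match and mismatch probes of the Mouse Expression Array 430A. Whether the authors scaled the arrays is not stated in the labels. Of 22690 probe sets, 64 controls were set aside; 20380 had 1 gene symbol in the platform annotation, 691 several and 1555 none, and 20351 matched RefSeq. Each array was scaled to a mean of 500 after trimming 2% at each end, signals under 100 were set to 100, and log2 was taken. Genes with a mean signal of at least 100 were kept. Strain and diet were tested with lmFit and eBayes (limma 3.58.1, R 4.3.3), which were tested on simulated data; other steps used Python 3.11.15, numpy 2.4.6 and pandas 2.3.3. Signals of different probe sets were set against each other to choose the brightest and were added in the marker sums. Otherwise they were not compared as levels. The members, the pathway and marker lists and the rule for the genes named (any member; listed genes that were called or among the largest ratios; called neighbours) were chosen with earlier results of these data known. Alternatives were quantile normalization, no scaling, other floors, a pseudocount, other probe set rules, no filter, an intensity trend, a 1-factor fit and each array left out.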

Additional observations from a re-analysis of the deposited data

Results flagged for a closer look

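Galnt7 differed between the strains in its diet ratio: high-fat was above low-fat in A/J and below it in C57BL/6J. The log2 ratio of high-fat to low-fat was 0.69 for A/J and -0.76 for C57BL/6J, a difference of 1.45, from signals of 785 and 1265 in A/J and 1512 and 892 in C57BL/6J. The difference was not tested, since each group has 1 array. Of the 8036 measured genes, 15 were 1.5-fold or more higher in A/J and lower in C57BL/6J on high-fat with all 4 signals above the floor, and 24 the other way round. The other 2 measured probe sets of Galnt7 had the same signs, with differences no larger than 0.14 in A/J and sizes of -0.42 and -0.14 in C57BL/6J.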

How the results depend on the processing

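Of 60 alternative values of the counts, 48 stayed within 1.5 times the reported count. The 48 include all values for 2-fold diet differences in A/J and for limma diet calls, which were 0 throughout on all 4 arrays. The 60 values take in limma fits with an array dropped, which leave 1 array in a strain and in a diet and so decide nothing. Most of the 12 that moved were limma strain calls. None of the 6 genes recomputed under the alternatives (St3gal4, St3gal6, St6galnac2, Galnt11, Gcnt3 and B3galt6) reversed, though B3galt6 was 0.00 at a floor of 200. Some became weaker. The log2 strain difference of St6galnac2 on low-fat fell under 2-fold, to -0.9 with a floor of 200 and -0.92 with the mean of all probe sets. Other named genes were not recomputed; for some, such as Galnt2 and B4galnt2, another probe set turns the sign of the low-fat strain difference. The count of 4 genes 2-fold apart between strains on low-fat was 2 without shared probe sets, and the count of 1 for diet in C57BL/6J was 0 with a floor of 200 and 0 with a pseudocount of 50. The 5 genes that limma called for strain became 8 without scaling and 3 without shared probe sets. Without shared probe sets St3gal4 has none left to test, and St3gal6 was not called, with an adjusted limma p of 0.132. The calls were 2 with 1 factor only (Galnt11 and St3gal4), 0 with a floor of 200 and 0 with no filter on mean signal. At a floor of 200, 7 of the genes had an unadjusted p under 0.05, and with no filter 9 did; in those fits no gene of the array was called, and 1254 and 3580 genes had a residual of 0. Single arrays were dropped in a 1-factor fit that assumes a lone array varies like the others. The log2 strain difference then lay between -6.91 and -6.69 for St3gal4 and between 1.54 and 1.77 for Galnt11. It lay between -1.72 and -1.05 for St6galnac2 and between 0.69 and 1.37 for St3gal6. Calls of these fits are not given, since 1 strain and 1 diet are left with 1 array. For diet limma called 0 in every alternative run on all 4 arrays, with 1 to 5 at an unadjusted p under 0.05. Without scaling, the median log2 ratio of all genes moved to 0.20 and 0.32 for strain on low-fat and high-fat. Signals near the floor, as for St3gal4 in A/J, B3galt6 and St3gal3, limit the ratios of those genes. No paired analysis was possible because the labels give no replicate numbers and each group has 1 array.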
